A study of Mus musculus with 8 samples.

Results

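The genes of the cytosolic ribosomal proteins were compared between the retinas of Lpcat1 wildtype (WT) and knockout (KO) mice. Lpcat1 encodes lysophosphatidylcholine acyltransferase 1, which adds an acyl chain to lysophosphatidylcholine and so remodels membrane lipids. Total RNA of the whole retina was taken at 2 weeks of age (2w) from C57BL/6 mice, and each of the 4 WT and 4 KO samples was hybridised in 1 colour (Cy3) to a SurePrint G3 mouse gene expression array. The deletion was present in the whole body rather than in photoreceptors alone. Per the study's methods, the line was made on a C57BL6/N background that carries the rd8 allele of Crb1, was crossed to C57BL6/J, and mice homozygous for rd8 were not used. Members were all genes whose RefSeq symbol is that of a protein of the small (Rps) or the large (Rpl, Rplp) subunit, mitochondrial ribosomal proteins excluded, with a probe that names 1 of their transcripts. The array held 83 such genes on 170 probes. Of these, 81 genes on 166 probes passed the filter on dim probes and were tested, 31 of the small and 50 of the large subunit, out of 14939 genes tested. All 81 were well above background on all 8 arrays. The other 2, Rpl10l and Rpl39l, passed that limit on none of the arrays (0 of 8). Rps23 had no probe under this rule.

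A ribosome is built from a small subunit, which decodes the mRNA, and a large subunit, which joins the amino acids. Each subunit holds ribosomal RNA and a single copy of most of its proteins, so cells make these proteins in matched amounts. Their mRNAs are among the most abundant of any cell, and many of them begin with an unbroken run of pyrimidines, the terminal oligopyrimidine tract, through which growth signals that pass by mTORC1 control their translation. Photoreceptors make up most of the retina's cells and renew a part of their outer segments every day, which places a steady load on protein synthesis.

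The start of the transcript was shown first, because a pyrimidine run there is known from this family and was not used in the choice by name. RefSeq windows of 300 bases around annotated transcript starts (GRCm38.p6) were found for 60 of the 81 tested genes. Counting every annotated start of the family (64 genes, untested ones included), 18 of 76 windows (23.7%) had an unbroken run of at least 8 C or T bases that covered the first transcribed base, compared with 3.86% of all 32851 windows. In the following windows, written 5′ to 3′ along the gene from 35 bases before the annotated start to the 25th transcribed base, capitals mark this run.
Rpl7a (chr2:26910772-26910831, plus strand): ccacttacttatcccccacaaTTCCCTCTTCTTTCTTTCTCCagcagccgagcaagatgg
Rpl35 (chr2:39005107-39005166, minus strand): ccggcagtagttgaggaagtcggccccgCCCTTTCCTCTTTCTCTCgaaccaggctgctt
Rps6 (chr4:86857343-86857402, minus strand): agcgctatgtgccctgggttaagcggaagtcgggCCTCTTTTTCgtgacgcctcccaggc
Rps18 (chr17:33955641-33955700, minus strand): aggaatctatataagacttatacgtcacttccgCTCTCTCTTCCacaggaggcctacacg
Rplp2 (chr7:141447616-141447675, plus strand): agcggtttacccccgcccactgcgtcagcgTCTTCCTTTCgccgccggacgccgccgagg
Rps27 (chr3:90213624-90213683, minus strand): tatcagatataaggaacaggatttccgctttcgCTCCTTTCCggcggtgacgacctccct
The windows of paralogues and of the Rpl22 gene are shown for contrast, since none of them has a pyrimidine at the annotated start and so no base is in capitals.
Rps27l (chr9:66946051-66946110, plus strand): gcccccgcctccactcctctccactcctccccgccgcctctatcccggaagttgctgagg
Rpl22l1 (chr3:28805473-28805532, plus strand): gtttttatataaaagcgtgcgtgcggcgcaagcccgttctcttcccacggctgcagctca
Rpl22 (chr4:152325691-152325750, plus strand): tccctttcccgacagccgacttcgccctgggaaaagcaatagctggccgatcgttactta
Rpl3l (chr17:24727791-24727850, plus strand): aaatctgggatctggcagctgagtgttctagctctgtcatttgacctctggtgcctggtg
The motif CCGGAAG, searched on both strands, lay in 26 of the 76 windows of 300 bases (34.2%) and in 8.86% of all windows. AAGATGG, also searched on both strands, lay in 12 (15.8%) and in 6.34% of all. These motifs can overlap in the letters AAG, and 2 windows held both. A match is only a description of the letters, and the annotated start need not be the one used in the retina.

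**Figure D1:**
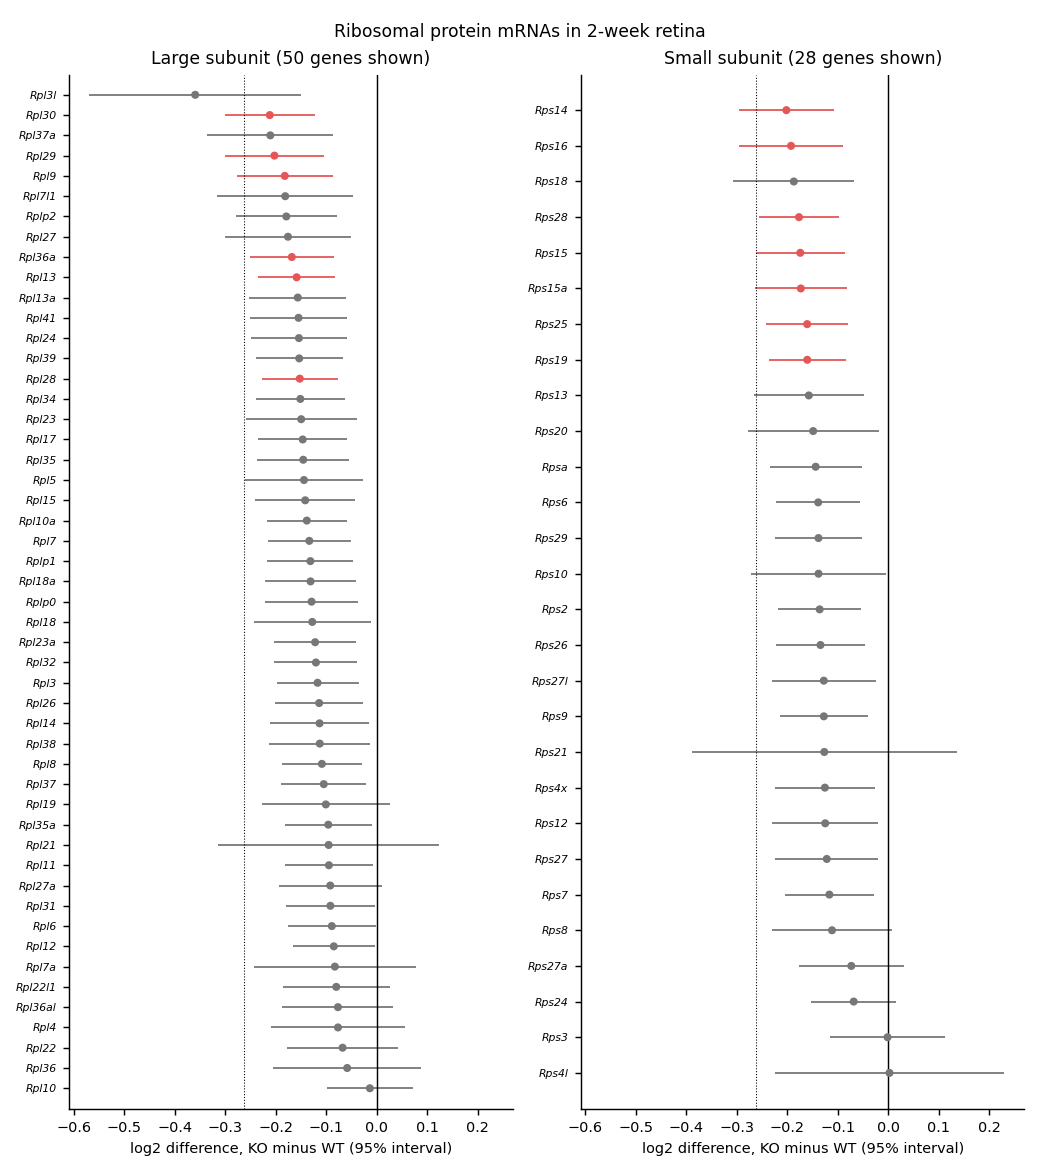
Log2 difference (KO minus WT) of 78 of the 81 ribosomal protein genes with its 95% interval, large subunit left and small subunit right. Red marks the 13 of these genes with an adjusted p under 0.05, and the dotted line is a 1.2-fold decrease. All points but Rps4l lie below 0, and no red interval reaches 0.

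At 2 weeks, the mRNAs of the ribosomal proteins lay slightly lower in KO as a family. The log2 difference (KO minus WT) was below 0 in 80 of 81 genes, and its median was -0.13, or 8.91% lower. The lower and upper quartiles were -0.16 and -0.11, and all lay between -0.36 (Rpl3l, a paralogue of Rpl3 known from muscle) and 0.00 (Rps4l). Over all 14939 genes the median was -0.02 and 57.8% were lower. None of the 81 genes (0) reached an adjusted p under 0.05 with a fold change over 1.2 by limma in either direction, limits that are those of the study, where 1.49% of all genes were called lower and 1.99% higher. Without a minimum fold, 15 of the 81 genes (18.5%) were lower at an adjusted p under 0.05, compared with 3.32% of all genes, and 0 were higher, compared with 3.3%. At an unadjusted p under 0.05, 65 genes were lower, compared with 15.3% of all genes, and 0 were higher, compared with 10.9%. In 59 genes (72.8%) all 4 KO values lay below all 4 WT values, compared with 12.4% of all genes, and in 0 genes all KO values lay above, compared with 8.78%. The 95% interval stayed within the 1.2-fold limits in 62 genes, extended below them in 19 and held 0 in 16. These 15 calls depended on the processing. Their number was 0 after quantile normalization, cyclic loess, a median shift or without the filter on dim probes. It was also 0 with the replicate number as a block, and 51 with limma's trend and robust options. Leaving out 1 array gave 0 to 4 calls (1 without WT replicate 1, 4 without KO replicate 1, 2 without KO replicate 3 and 0 without any other array). In the same sense the size of the shift depended on the scaling, with a median of -0.05 after quantile normalization and -0.07 after cyclic loess, each with 75 of 81 genes lower.

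The shift was present on every KO array. With each gene centred on the mean of its genotype means, the median over the 81 genes was 0.05, 0.06, 0.07 and 0.07 on the log2 scale in WT replicates 1 to 4, and -0.08, -0.06, -0.03 and -0.09 in KO replicates 1 to 4. The KO array nearest to WT was replicate 3, and the groups did not overlap. The medians of the 1534 other genes of like brightness were 0.00, 0.02, 0.02 and 0.03 in WT and -0.03, -0.03, 0.00 and -0.02 in KO, and these groups overlapped. The WT arrays filled one row of the shared slide and the KO arrays its other row, and so row and genotype cannot be told apart.

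**Figure D2:**
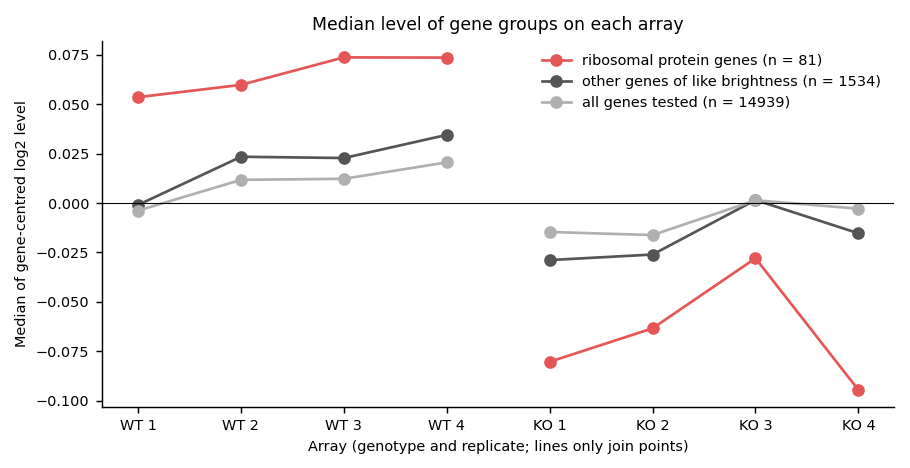
Median of the gene-centred log2 level on each of the 8 arrays for the 81 ribosomal protein genes, for 1534 other genes of like brightness and for all 14939 genes tested. The ribosomal protein genes lie at 0.05 to 0.07 on the WT arrays and at -0.09 to -0.03 on the KO arrays, a wider gap than in the other 2 groups.

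The first genes described are those with the largest differences. Rpl30 encodes a large-subunit protein without a bacterial counterpart. Its log2 level, relative to the 75th percentile of the array, was 5.59, 5.66, 5.69 and 5.65 in the 4 WT samples and 5.40, 5.46, 5.41 and 5.47 in the 4 KO samples. All KO values lay below all WT values, and the difference was -0.21 (SE 0.04, limma adjusted p = 0.0256). Among its 3 probes the difference ran from -0.21 to -0.07. Rps14, a small-subunit protein whose loss underlies the anaemia of a human chromosome deletion, had levels of 8.02, 8.02, 7.95 and 8.08 in WT and 7.80, 7.78, 7.86 and 7.84 in KO. The groups were again separate, and the difference was -0.20 (SE 0.04, adjusted p = 0.0342). Rpl29, a protein of the outer face of the large subunit, stood at 7.03, 7.07, 7.09 and 7.01 in WT and at 6.79, 6.82, 6.93 and 6.84 in KO. Its difference was -0.20 (SE 0.04, adjusted p = 0.0375), and both of its probes were lower (-0.20 and -0.15). Rpl37a, a zinc-binding protein of the large subunit, was at 6.99, 7.15, 7.07 and 7.17 in WT and 6.80, 6.89, 6.95 and 6.90 in KO. This difference of -0.21 was as large as that of Rpl30, without overlap, but the WT samples varied more (SE 0.05) and the adjusted p was 0.0618. Rpl36a, the other gene past the threshold among those named by the fixed rule, had 4.13, 4.15, 4.15 and 4.20 in WT and 4.00, 4.01, 4.01 and 3.94 in KO. The groups did not overlap, and the difference was -0.17 (SE 0.04, adjusted p = 0.0400). After quantile normalization none of these 5 genes passed the threshold, and the difference of Rps14 was -0.043, smaller than the family's median under that scaling. Those of Rpl29, Rpl37a, Rpl30 and Rpl36a were -0.09, -0.10, -0.13 and -0.13.

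Of the 15 genes with an adjusted p under 0.05, 9 belonged to the small subunit (among them Rps14, Rps15, Rps15a, Rps16, Rps19, Rps25 and Rps28) and 6 to the large (Rpl9, Rpl13, Rpl28, Rpl29, Rpl30 and Rpl36a). The genes outside the fixed rule were named here after their values were seen. Among the most even was Rps19, with 3.95, 3.91, 3.90 and 3.92 in WT and 3.74, 3.74, 3.78 and 3.78 in KO. Its difference was only -0.16 (SE 0.03, adjusted p = 0.0348), and so a small difference passed the threshold where the replicates were close. Rps21 showed the opposite, with 2.41, 2.30, 2.32 and 2.17 in WT and 2.30, 2.30, 2.27 and 1.82 in KO. Its groups overlapped, KO replicate 4 lay far below the others, and the difference of -0.13 had an SE of 0.11 (adjusted p = 0.542). Over the fits that each lacked 1 array, 0 to 1 genes of the family passed both thresholds, and the 1 gene did so without KO replicate 3.

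**Figure D3:**
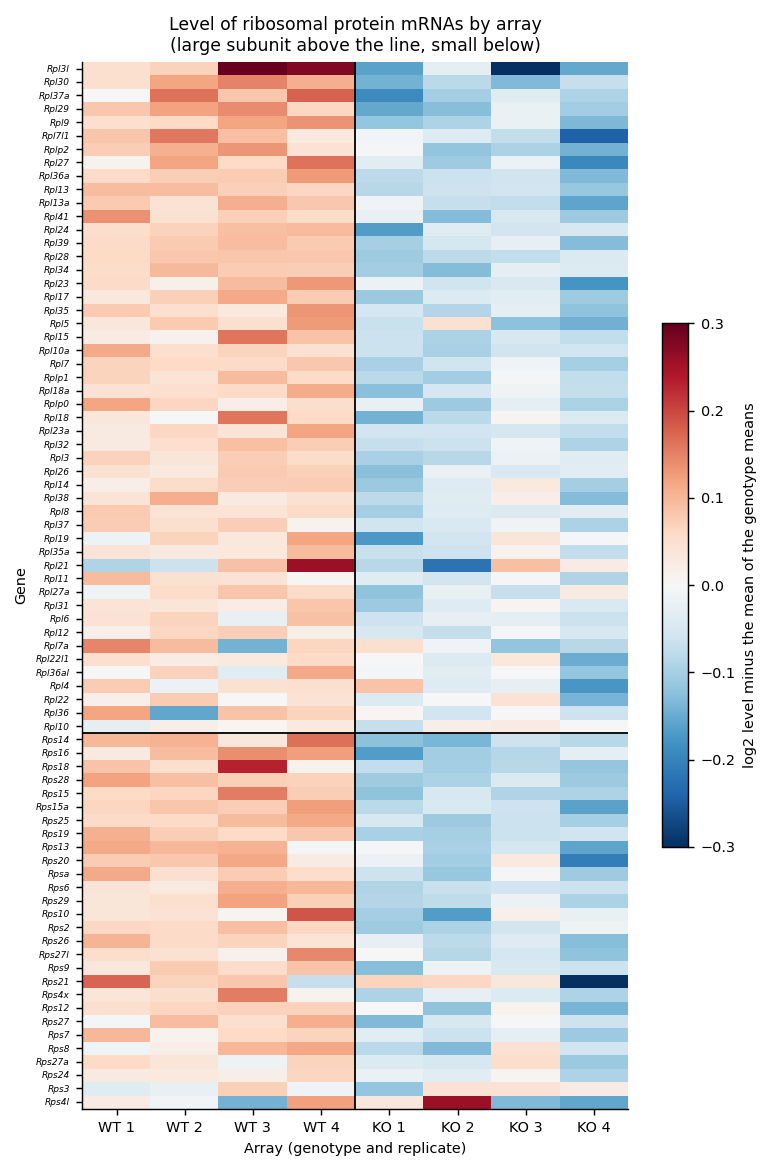
Log2 level of 78 of the 81 ribosomal protein genes on each array, minus the mean of its genotype means (red higher, blue lower; the colours saturate at 0.3 above and below 0). The 4 WT columns are mostly red and the 4 KO columns mostly blue in both subunits, and KO replicate 3 is the palest of the KO columns.

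To ask whether the subunits differed, their genes were compared. The median difference was -0.14 over 31 small-subunit genes, of which 30 were lower and 22 without overlap, and -0.13 over 50 large-subunit genes, of which 50 were lower and 37 without overlap. Per array, the small-subunit median minus the large-subunit median lay between 0.00 and 0.01 in WT and between -0.03 and -0.01 in KO, a difference of -0.02. The quartiles lay 0.04 apart on the log2 scale in the small and 0.06 apart in the large subunit.

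The large subunit's stalk binds the elongation factors. Its base protein Rplp0 had levels of 6.91, 6.86, 6.81 and 6.85 in WT and 6.77, 6.68, 6.76 and 6.70 in KO. Its arm proteins Rplp1 and Rplp2 had 6.19, 6.16, 6.22 and 6.18 against 6.04, 6.02, 6.12 and 6.05, and 6.73, 6.76, 6.78 and 6.70 against 6.65, 6.53, 6.56 and 6.51, respectively. All 3 were without overlap, with differences of -0.13, -0.13 and -0.18, and none passed the threshold at its brightest probe (adjusted p = 0.0987, 0.0785 and 0.0532). Dimmer probes of Rplp0 gave -0.17 and -0.15 (adjusted p = 0.0438 and 0.0614). Rpl5 and Rpl11 join the ribosome as a particle with an RNA of their own and, when free, bind the p53 regulator Mdm2. Rpl5 had 3.68, 3.72, 3.70 and 3.77 in WT and 3.58, 3.69, 3.52 and 3.50 in KO, where KO replicate 2 overlapped WT (-0.14, adjusted p = 0.134). Rpl11 had 7.07, 7.02, 7.02 and 6.98 in WT and 6.94, 6.92, 6.97 and 6.88 in KO, with the closest values of the groups nearly touching (-0.09, adjusted p = 0.178), and its difference was 0.01 after quantile normalization. Its other 2 probes, both dimmer, gave -0.16 and -0.21 (adjusted p = 0.0861 and 0.0420). Rps6, the small-subunit protein that S6 kinase phosphorylates, had 6.03, 6.02, 6.10 and 6.09 in WT and 5.90, 5.92, 5.93 and 5.93 in KO. The groups were separate, with a difference of -0.14 (adjusted p = 0.0619). Dimmer probes of Rps6 gave -0.15 and -0.04 (adjusted p = 0.0407 and 0.704). Rps27a, made as a fusion with ubiquitin, overlapped between genotypes at 6.87, 6.85, 6.80 and 6.88 against 6.77, 6.76, 6.87 and 6.70, with a difference of -0.07 (adjusted p = 0.366) that was 0.04 after quantile normalization and 0.01 after cyclic loess.

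A few genes stood near 0. Rpl10, which joins late in the assembly of the large subunit and lies near its catalytic centre, had 6.53, 6.57, 6.56 and 6.58 in WT and 6.48, 6.57, 6.58 and 6.55 in KO. The groups overlapped, the difference was -0.01 with a 95% interval of -0.10 to 0.07, and the 3 probes of the gene ran from -0.04 to 0.00. The interval includes a part of the family's range, up to a decrease of 0.10, but not its median. The difference turned to 0.05 after quantile normalization and 0.06 after cyclic loess. Rps3, a protein at the mRNA entry of the small subunit that was picked out after its values were seen, was at 3.66, 3.67, 3.77 and 3.68 in WT and 3.58, 3.74, 3.74 and 3.72 in KO. Its difference was 0.00 (95% interval -0.12 to 0.11), and its dimmer probe gave -0.12 (SE 0.06, adjusted p = 0.295). Whether these probes differ was not tested.

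Paralogues, further genes related to a ribosomal protein gene, were compared with their canonical partners. Both genes of 6 pairs were measured, and the difference in change was tested by a two-sided exact permutation test over 70 splits, adjusted over the 6 pairs. No pair passed (smallest adjusted p = 0.171, which is the smallest that 1 pair alone can reach). Rpl36al, a gene without introns made from a copy of Rpl36a mRNA, had 3.14, 3.21, 3.11 and 3.25 in WT and 3.13, 3.11, 3.14 and 3.02 in KO, overlapping. Its difference of -0.08 was smaller than that of Rpl36a by 0.09 (SE 0.03, exact p = 0.0286, adjusted p = 0.171). This used the brightest probe of Rpl36a (-0.17), and the dimmer probes of Rpl36a gave -0.14 and -0.14. Rpl3l had -3.16, -3.14, -2.89 and -2.93 in WT and -3.37, -3.24, -3.58 and -3.36 in KO, the dimmest among the brightest probes of each gene. Its groups did not overlap, and its difference was -0.36 (SE 0.09, adjusted p = 0.0596). The size of this difference depended on the background correction, since it was -0.17 with normexp, less than that of Rpl37a, Rpl30 and Rps14 (-0.22, -0.22 and -0.21). Rpl3, its partner at the catalytic centre, had 6.48, 6.45, 6.49 and 6.47 in WT and 6.32, 6.33, 6.40 and 6.38 in KO, a difference of -0.12 without overlap (adjusted p = 0.0924). The 2 changes differed by -0.24 (SE 0.11, exact p = 0.0857, adjusted p = 0.257), and by -0.09 with normexp.

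The remaining 4 pairs were compared in the same way. Rpl7l1 was at -1.56, -1.49, -1.55 and -1.61 in WT and -1.65, -1.68, -1.72 and -1.89 in KO (-0.18), and Rpl7 at 6.12, 6.12, 6.11 and 6.14 in WT and 5.96, 6.00, 6.05 and 5.96 in KO (-0.13). Both were without overlap, and the changes differed by -0.05 (SE 0.06, exact p = 0.371). Rpl22l1 was at 4.71, 4.68, 4.69 and 4.71 in WT and 4.66, 4.62, 4.69 and 4.51 in KO (-0.08), and Rpl22 at 4.71, 4.78, 4.70 and 4.74 in WT and 4.66, 4.70, 4.74 and 4.56 in KO (-0.07). In both genes of this pair KO replicate 4 was the lowest and KO replicate 3 lay among the WT values. The changes differed by -0.01 (SE 0.03, exact p = 0.657). A dimmer second probe of Rpl22 gave -0.17 (adjusted p = 0.0461), and with the mean of each gene's probes the changes differed by 0.04. Rps27l, known as a target of p53, was at 3.09, 3.09, 3.05 and 3.18 in WT and 3.04, 2.95, 2.99 and 2.92 in KO (-0.13), and Rps27 at 6.42, 6.52, 6.48 and 6.54 in WT and 6.30, 6.38, 6.43 and 6.37 in KO (-0.12). Their changes differed by -0.01 (SE 0.05, exact p = 0.800). Rps4l, which RefSeq lists as a transcribed pseudogene, varied most, at 2.59, 2.56, 2.42 and 2.69 in WT and 2.60, 2.82, 2.43 and 2.41 in KO. Its difference was 0.00 (SE 0.10), while X-linked Rps4x stood at 4.53, 4.55, 4.65 and 4.51 in WT and 4.40, 4.47, 4.46 and 4.41 in KO (-0.13, without overlap). These changes differed by 0.13 (SE 0.12, exact p = 0.400). The SEs of these differences between partners ran from 0.03 to 0.12, and so the p-values do not show that partners changed alike.

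Several probes were available for 50 of the genes. The second brightest probe was lower in KO in 48 of 50 genes, with a median of -0.14, and of all 85 probes other than the brightest, 79 were lower. Dim probes showed less. In the 21 extra probes with a log2 level under 3, 17 were lower and the median was -0.07, compared with -0.14 in the 64 brighter ones. In 36 of the 50 genes the probes lay within 0.1 of each other on the log2 scale. The widest spread was that of Rpl7a, a gene chosen after its values were seen. Its 4 probes gave -0.08, -0.48, -0.09 and -0.43 from the brightest to the dimmest, and the dimmest was the 1 probe of 166 (0.602%) to pass both thresholds (SE 0.09, adjusted p = 0.0329), a share below the 1.54% of all 33972 tested probes called lower. Rps24 followed, with -0.07, -0.18 and 0.08 over 3 probes. Ribosomal protein genes have many processed pseudogenes, and binding of their transcripts to these probes was not tested.

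Since these genes are bright and bright probes as a whole lay lower in KO, they were set beside other genes of like brightness. Between the 10th and 90th percentile of the family's log2 level (3.69 to 6.96) lay 1534 other genes, with a median difference of -0.04, and 66.7% of them were lower, 21.4% lower without overlap and 4.89% lower at an adjusted p under 0.05. The 65 ribosomal protein genes in this window had a median of -0.13, with 65 lower and 49 (75.4%) without overlap. The family was also more uniform, since its quartiles lay 0.05 apart on the log2 scale and those of the others 0.12 apart. Per level, the other genes had a median of -0.06 at 5 to 6, -0.05 at 6 to 7 and -0.12 at 7 to 8 (358, 119 and 47 genes), and the ribosomal protein genes had -0.13, -0.14 and -0.15 (26, 32 and 5 genes). In the brightest of these ranges, the groups were therefore close. The median of the family minus that of the others of like brightness was -0.10, and it was -0.07 after quantile normalization and -0.08 after cyclic loess. The median over all genes moved between -0.02 and 0.01 among these scalings.

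**Figure D4:**
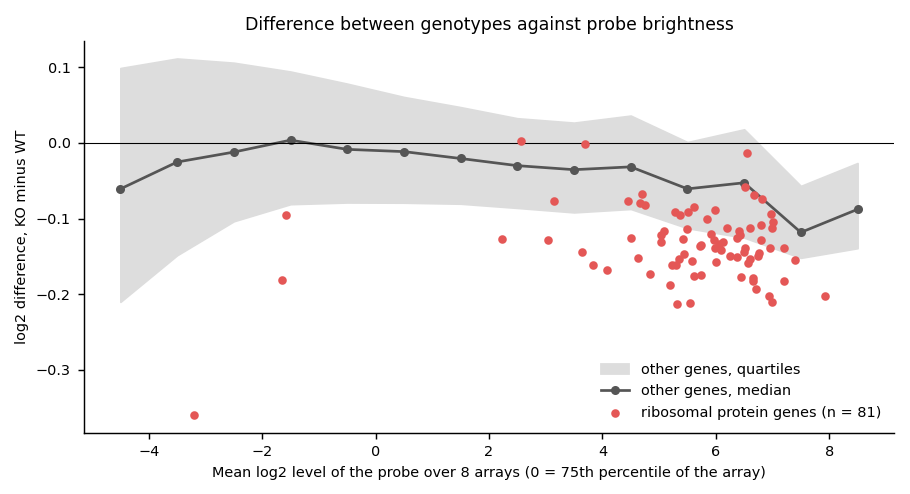
Log2 difference (KO minus WT) against the mean log2 level of the probe for 81 ribosomal protein genes (red), with the median (line) and the quartiles (grey band) of the other genes in steps of 1 on the log2 scale. Most red points lie below the grey band between levels 4 and 7, and the line itself falls towards bright probes, to -0.12 at 7 to 8.

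Other genes of protein synthesis were examined as lists. None of the lists of translation or of its control had a gene past both thresholds (0 genes). The proteins of the mitochondrial ribosome, which are encoded apart and have no part in cytosolic translation, had a median of -0.07, with 64 of 77 genes lower, 23 lower and 0 higher without overlap, and 4 (5.19%) lower at an adjusted p under 0.05. Over all genes, 12.4% were lower and 8.78% higher without overlap, and 3.32% were lower at that adjusted p, so the share of 29.9% lower without overlap was above the background here while the 13.5%, 9.09% and 8.11% of the next 3 lists were near or below it. Initiation factors had a median of -0.04 (27 of 37 lower, with 5 lower and 1 higher without overlap), elongation and termination factors -0.03 (7 of 11 lower, with 1 lower and 1 higher without overlap) and ribosome assembly factors -0.02 (20 of 37 lower, with 3 lower and 3 higher without overlap). The kinase complex mTORC1 with its regulators and targets had a median of 0.00 (12 of 24 lower, with 2 lower and 3 higher without overlap). Of the 4 ribosome genes whose names fall outside the rule, Fau, which is fused to a ubiquitin-like sequence, differed by -0.14, Rps3a1 by -0.10 and the scaffold Rack1 by -0.10. All 4 were lower and 3 were without overlap, with 0 past the threshold.

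Subsets of the family with other uses were counted as well. Genes mutated in Diamond-Blackfan anaemia, a failure of red cell production, were taken from a list that need not be complete. Its genes had a median of -0.14, with 17 of 17 lower and 12 without overlap, and 2 (Rps19 and Rps28) had an adjusted p under 0.05. These shares of 70.6% and 11.8% did not exceed the 72.8% and 18.5% of the whole family, and 12.4% and 3.32% of all genes met the same limits. Among ribosomal protein genes that serve as references in quantitative PCR (Rplp0, Rpl13a, Rpl19, Rpl27, Rpl32 and Rps18), the differences ran from -0.19 to -0.10, with 6 of 6 lower and 5 without overlap, and 0 past the threshold. In the 17 tested genes with a pyrimidine run of at least 8 bases at an annotated start the median was -0.14, and in the 43 with a shorter run or none it was -0.14.

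Cell type markers moved with genotype in the same samples. The 8 rod markers were all lower in KO and 3 were called (among them Nr2e3 -0.50 and Sag -0.36). The log2 of their summed level lay at 10.54 to 10.59 on the WT arrays, above the 10.30 to 10.37 of the KO arrays. The 8 microglia markers were all higher and 5 were called (among them Tyrobp 0.65, C1qc 0.57 and C1qb 0.54), and their sum was 3.28 to 3.38 for WT compared with 3.66 to 3.70 for KO. Of 6 Mueller glia markers, 5 were higher and 3 were called (Kcnj10 0.31, Clu 0.30 and Apoe 0.29; sums of 8.13 to 8.23 for WT, 8.40 to 8.45 for KO). All 5 cone markers were higher and 2 were called (Arr3 0.46 and Opn1sw 0.43; sums of 7.02 to 7.08 for WT, 7.27 to 7.35 for KO). Of 5 amacrine and horizontal markers, 4 were higher and 0 were called, and their sums also lay apart (6.22 to 6.25 for WT, 6.35 to 6.40 for KO). Bipolar, ganglion, lens, pigment epithelium and red blood cell markers had 0 calls. The part of these shifts in the result for ribosomal protein genes was not tested, and in whole tissue fewer cells of a type and less RNA per cell cannot be told apart. At the targeted gene, the mean log2 level over 4 arrays was -0.41 in WT (SD 0.03) and fell to -0.87 in KO (SD 0.06), a difference of -0.46 (SE 0.04, limma adjusted p = 0.0036), at a probe whose place relative to the deleted part is not given in the sources used here. The signal at the 75th percentile ran from 638 to 738 over the arrays, between 33110 and 36366 probes were well above background, and 0 spots were saturated.

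**Figure D5:**
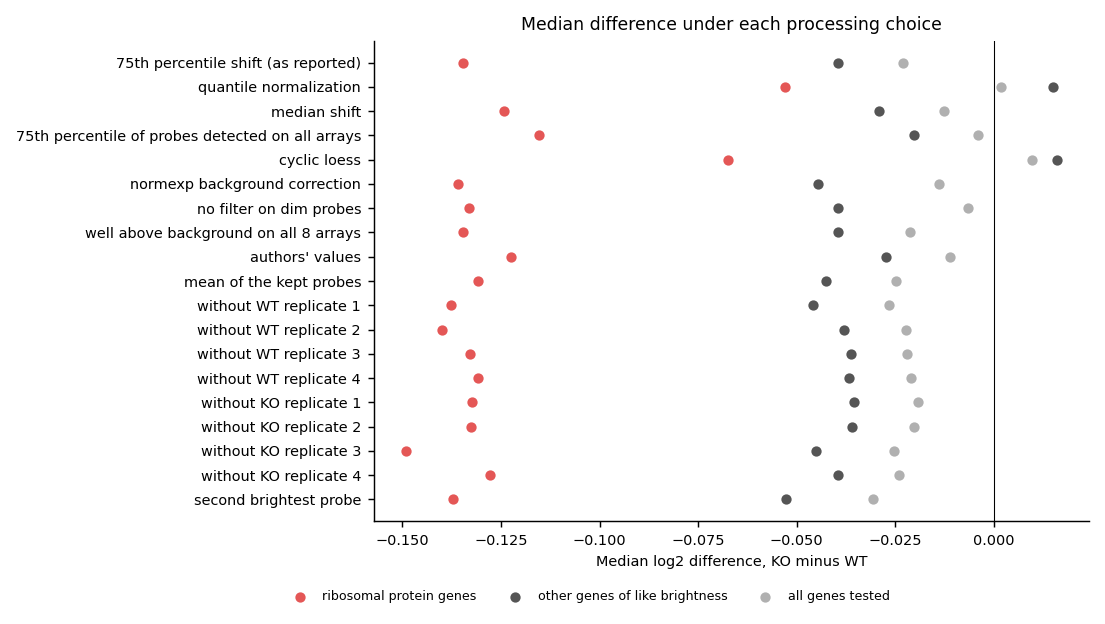
Median log2 difference (KO minus WT) of the ribosomal protein genes, of the other genes of like brightness and of all genes tested under each processing choice and without each array. The ribosomal protein genes lie lowest in every line, between -0.15 and -0.05, and both other groups move towards or past 0 with quantile normalization and cyclic loess.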

How the data were processed

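Total RNA of whole retina was hybridised to 8 arrays, 4 per genotype, with groups and numbers as labelled. Whether the samples came from separate mice is not given in the labels, so p-values measure the spread between these samples. Scans were quantified by the authors (Feature Extraction 10.7.1.1). Per the file headers, the deposited array files contain background-subtracted intensity on a linear scale for 62976 spots, not scaled between arrays, and the deposited series table holds the authors' log2 values after a 75th percentile shift in GeneSpring, which served as an alternative. All per-sample columns had a place (0 unused).

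From the log2 processed signal, the array's own 75th percentile (59305 spots, controls excluded, outlier spots included) was subtracted. Outlier spots (86 to 147 per array) were dropped before the spots of a probe were averaged. The 33972 probes that 1 genotype or both had well above background on 4 of 4 arrays were fitted with limma 3.58.1 (lmFit, eBayes; R 4.3.3), with Benjamini-Hochberg adjustment over all of them. A call needed a change of over 1.2-fold at an adjusted p under 0.05. A gene was represented by its probe with the highest mean over 8 arrays. Symbols came from RefSeq (GRCm38.p6) by transcript, while the array's design uses mm9, so coordinates are given only for RefSeq windows. The paralogue pair differences were compared between genotypes by exact permutation tests (smallest two-sided p 0.0286). The medians per array, the subunit difference and the marker sums were not tested. The number of arrays limits the precision. The named genes were the paralogue pairs, the stalk, Rpl5, Rpl11, Rps6, Rps27a, the 5 largest differences without overlap, and up to 3 called genes of each other list. Members, lists and this rule were chosen with earlier results of these data known. Alternatives were other scalings, filters, background correction (normexp, offset 50, on median signals), tests, probes and a replicate block, and leaving out each array. The second brightest probe and the difference from genes of like brightness were added after seeing the data. The fit was tested on simulated data. A few genes are counted but not reported here by name.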

Additional observations from a re-analysis of the deposited data

How the results depend on the processing

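The median over the ribosomal protein genes stayed below 0 under every alternative run. It was -0.053 after quantile normalization (small subunit -0.059, large subunit -0.047) and -0.067 after cyclic loess (small -0.069, large -0.062), and the small-subunit median was -0.119 where the percentile was taken over detected probes alone. Genes lower without overlap numbered 19 after quantile normalization, 34 after a median shift and 26 after cyclic loess. The difference from other genes of like brightness was -0.068 after quantile normalization. Called genes numbered 15 without a minimum fold change, and 0 to 1 over the fits that lacked 1 array (1 without KO replicate 3). Leaving out each array gave 60 to 68 genes without overlap, a count that cannot fall when an array is removed, a median of -0.15 to -0.13 and a small-subunit median of -0.16 to -0.13. Of the 80 genes below 0, 74 stayed below 0 under all 21 alternative fits. The exceptions were Rpl10 (0.052 after quantile normalization, 0.0059 with the percentile of detected probes, 0.064 after cyclic loess and -0.025 to 0.0077 without 1 array), Rpl11 (0.012, quantile), Rps27a (0.037, quantile, and 0.0074, cyclic loess) and, chosen after their values were seen, Rps3, Rps24 and Rpl36. Rps4l turned to -0.046 with normexp and ran from -0.083 to 0.054 without 1 array. The pair Rps27l and Rps27 differed by 9.775e-05 with normexp, 0.016 with the mean of the kept probes and -0.052 to 0.013 without 1 array, and Rpl22l1 and Rpl22 by 0.041 with the mean of the kept probes. The cause was not tested.

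At an adjusted p under 0.05 without a minimum fold, counts were 7 with the percentile of detected probes, 7 with the authors' values, 21 with normexp, 22 with array weights, 17 with the mean of the kept probes, 17 with the filter on all 8 arrays and 34 with the methods' t-test after Benjamini-Hochberg adjustment. With the replicate number as a block, the median was -0.13 and this count was 0, with 62 genes at an unadjusted p under 0.05. Deviations of same-numbered samples correlated at 0.249, 0.0686, 0.0369 and 0.112, and not every sample correlated best with its own number. These weak correlations do not decide whether the numbers mark pairs, and the labels do not say.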
